A study of Mus musculus with 12 samples.

Results

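Promoter-proximal BATF regions are the BATF ChIP-seq regions of mouse Th9 and Th17 cells whose summit lies within 2 kb of the start site of a curated RefSeq transcript. To find them, the peak lists of the 4 BATF libraries were pooled, peaks sharing at least 1 bp were merged, and the summit of the peak with the largest −log10 q was taken for each merged region. Of 5873 merged regions, 343 met the rule (5.84%, exact 95% binomial interval 5.25% to 6.47%), and the other 5530 are called distal here. Of the sequenced bases of the genome, 3.94% lie within the same distance of a start site.

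Naive CD4+CD62L+ T cells of C57BL6/J mice were activated with anti-CD3 and anti-CD28 and collected on the fifth day without restimulation. Th9 cells were grown with IL-4, human IL-2, TGF-β1 and an antibody to IFNγ. Th17 cells were grown with IL-6, TGF-β1, IL-23 and IL-1β together with antibodies to IFNγ, IL-4 and IL-2. BATF was immunoprecipitated in 2 libraries of each cell type, numbered 1 and 2 for Th9 and 3 and 4 for Th17, and each had an input and an IgG library as controls. Methods give adult mice of both sexes for the study as a whole and not for each library, and nothing states that the libraries came from separate animals, so differences between libraries of a cell type may be technical.

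BATF is a transcription factor of the AP-1 family with a basic leucine zipper. It lacks a transactivation domain of its own, binds DNA as a dimer with a JUN protein, and in T cells also binds next to IRF4 or IRF8 at composite elements that join an AP-1 site to an IRF site. It is required for the differentiation of several T helper subsets, and much of its known binding in T cells lies in enhancers away from promoters.

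The sequences below show the AP-1 site at promoter-proximal regions that were called in 2 or more libraries. AP-1 was searched as TGAGTCA on both strands (its reverse complement is TGACTCA) within 100 bp of the summit, and 5 of the 17 such regions held it. The site of *Slc25a45* lies in an exon and is not printed. Each line gives the AP-1 site nearest to the summit with 37 bases on either side, read on the strand of the gene, with AP-1 sites in capitals. All sequences are from the RefSeq genome GRCm38.p6.
Ankrd55, chr13:112287235-112287315, plus strand: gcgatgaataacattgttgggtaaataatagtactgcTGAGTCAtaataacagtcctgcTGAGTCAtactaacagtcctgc
2500004C02Rik, chr2:153345257-153345337, minus strand: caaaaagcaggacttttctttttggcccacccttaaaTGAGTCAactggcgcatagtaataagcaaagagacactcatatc
Cass4, chr2:172394009-172394089, plus strand: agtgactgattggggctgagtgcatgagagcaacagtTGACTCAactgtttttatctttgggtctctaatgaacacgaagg
Lamc1, chr1:153333812-153333892, minus strand: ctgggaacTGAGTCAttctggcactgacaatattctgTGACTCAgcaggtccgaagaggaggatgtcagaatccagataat
The windows of *Ankrd55* and *Lamc1* lie between genes and those of *2500004C02Rik* and *Cass4* in introns. The nearest site was 10 bp from the summit at *Ankrd55*, 52 bp at *2500004C02Rik*, 63 bp at *Cass4* and 56 bp at *Lamc1*.

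A composite of an AP-1 site and an IRF site was found at 6 of the 343 regions, each called in 1 library. It was searched as GAAA directly beside an AP-1 site with C or G in its middle, or as TTTC a short gap before one. The 5 printed here lie outside exons. The sixth, in an intron of *Gm4013*, is not printed. Capitals mark the composite, which overlaps an AP-1 site in each.
Ubald2, chr11:116433712-116433796, plus strand: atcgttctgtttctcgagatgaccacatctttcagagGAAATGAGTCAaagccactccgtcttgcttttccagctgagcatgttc
Ugt1a6a, chr1:88134101-88134189, plus strand: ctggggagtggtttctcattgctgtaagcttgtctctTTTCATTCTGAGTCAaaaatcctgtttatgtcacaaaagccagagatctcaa
C9orf72, chr4:35224147-35224235, minus strand: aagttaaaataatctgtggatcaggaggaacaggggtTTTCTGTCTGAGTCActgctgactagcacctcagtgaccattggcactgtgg
Lrch3, chr16:32915852-32915936, plus strand: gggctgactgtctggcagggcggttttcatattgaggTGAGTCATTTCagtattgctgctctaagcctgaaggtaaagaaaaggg
Cabcoco1, chr10:68541364-68541452, minus strand: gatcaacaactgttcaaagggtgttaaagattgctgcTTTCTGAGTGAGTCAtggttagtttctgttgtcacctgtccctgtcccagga

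Most of the strongest and most widely called promoter-proximal regions held neither motif, like most members, of which 22.4% held an AP-1 site. By class of strength the AP-1 share was still highest in the strongest members, at 41.4% for a −log10 q of 8 or more. The whole windows, reaching 100 bp to either side of the summit, are printed for the strongest region without a motif among those called in 2 or more libraries, which lies upstream of *Bpifc*, for the only region called in all 4 libraries, in an intron of *Gm4827*, and for the regions upstream of *Il2ra* and *Il21*. None has capitals, since neither AP-1 nor the composite was found in them.
Bpifc, chr10:86011916-86012116, minus strand: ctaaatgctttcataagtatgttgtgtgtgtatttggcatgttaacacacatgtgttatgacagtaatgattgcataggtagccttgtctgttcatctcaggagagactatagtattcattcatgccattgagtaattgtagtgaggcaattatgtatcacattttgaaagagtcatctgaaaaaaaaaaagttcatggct
Gm4827, chr16:50070772-50070972, minus strand: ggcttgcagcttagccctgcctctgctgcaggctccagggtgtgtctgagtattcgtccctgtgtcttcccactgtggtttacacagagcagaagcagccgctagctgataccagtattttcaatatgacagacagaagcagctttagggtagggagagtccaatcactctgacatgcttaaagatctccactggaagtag
Il2ra, chr2:11642544-11642744, plus strand: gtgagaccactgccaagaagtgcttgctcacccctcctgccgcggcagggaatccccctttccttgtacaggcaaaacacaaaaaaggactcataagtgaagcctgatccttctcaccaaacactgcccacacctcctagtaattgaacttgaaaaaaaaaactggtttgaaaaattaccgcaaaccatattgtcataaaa
Il21, chr3:37232965-37233165, minus strand: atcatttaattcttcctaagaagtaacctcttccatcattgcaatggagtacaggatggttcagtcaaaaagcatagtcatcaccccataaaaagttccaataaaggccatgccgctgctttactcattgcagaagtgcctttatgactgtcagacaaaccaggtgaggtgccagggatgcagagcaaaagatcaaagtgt

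The promoter-proximal regions were unevenly spread over the libraries, as were all regions. Th9 library 1 called 94 of them, Th9 library 2 called 14, Th17 library 3 called 249 and Th17 library 4 called 9. Of all 5873 regions, the same libraries called 29.1%, 4.1%, 70% and 3.37%, against 27.4%, 4.08%, 72.6% and 2.62% of the promoter-proximal regions, so the members were spread over the libraries much like the rest. Th17 library 3 alone called 237 of the 343 (69.1%, against 65.5% of distal regions). The lists hold no read counts, so the depth of the libraries is unknown from them. A promoter without a peak fell short of a library's threshold, which does not show that BATF was missing there.

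By cell type, 89 promoter-proximal regions were called in Th9 cells only (25.9%, against 28.6% of distal regions), 239 in Th17 cells only (69.7%, against 67.9%) and 15 in both. Altogether Th9 cells had 104 (30.3%, against 32% of all regions) and Th17 cells had 254 (74.1%, against 71.6% of all regions). The 15 shared regions were 4.37% of the members (interval 2.47% to 7.11%), against 3.58% of all regions and 3.53% of distal regions. Promoter-proximal and distal regions did not differ detectably in this share (two-sided Fisher's exact test, p = 0.371). The difference was 0.847 points, and leaving out 1 library gave −0.197 to 3.61. With the start sites of GENCODE vM21, chosen after seeing the data, it was 2.04 and passed the test (Fisher's exact test, p = 0.0150). Regions called in 2 or more libraries numbered 17 (4.96%, interval 2.91% to 7.82%), against 4.73% of all regions and 4.72% of distal regions (Fisher's exact test, p = 0.793). These tests treat regions as independent, and intervals cover counting error only.

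Per library, the share of peaks within 2 kb of a start site was 5.50% in Th9 library 1 (94 of 1709 peaks), 5.39% in Th9 library 2 (13 of 241), 6.06% in Th17 library 3 (249 of 4111) and 4.52% in Th17 library 4 (9 of 199). The 2 Th17 libraries lay on either side of the Th9 libraries. The means were 5.29% ± 1.08 (SD, n = 2) in Th17 and 5.45% ± 0.075 (SD, n = 2) in Th9 cells, and the difference of −0.157 percentage points was smaller than the spread between the Th17 libraries (exact two-sided permutation test over libraries, p = 1). The smallest p that 2 libraries against 2 can give is 0.333. Each library's share lay above the 3.94% of the genome that is within 2 kb of a start site, and for Th9 library 2 and Th17 library 4 the interval included that value.

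Within the 2 kb, the median distance of the summit was 835 bp, 173 summits lay upstream of or at the start site and 170 downstream, and 195 lay within 1 kb. Regions were 1.96 times as frequent as the genome share within 250 bp of a start site (63 regions, interval 1.5 to 2.5), 1.77 times from 250 to 500 bp (53 regions), 1.37 times from 500 bp to 1 kb (79 regions) and 1.33 times from 1 to 2 kb (148 regions). Beyond the limit the ratio was 1.18 from 2 to 5 kb and 0.838 beyond 50 kb. The pooled ratios fell with distance without a step at 2 kb, and the high value next to start sites rested on Th17 library 3. Without that library, an alternative chosen after seeing the data, the ratio was 0.816 within 250 bp (9 regions, interval 0.373 to 1.55), 1.66 from 250 to 500 bp, 1.26 from 500 bp to 1 kb and 1.44 from 1 to 2 kb. Without each of the others it was 1.95 to 2.35 within 250 bp. The member nearest to the limit lay 1991 bp from the *Eif4ebp2* start site, with a −log10 q of 3.32. The nearest region outside it lay 2005 bp from that of *Naip5*, with a −log10 q of 2.60. Both were called in Th17 library 3 only.

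**Figure D1:**
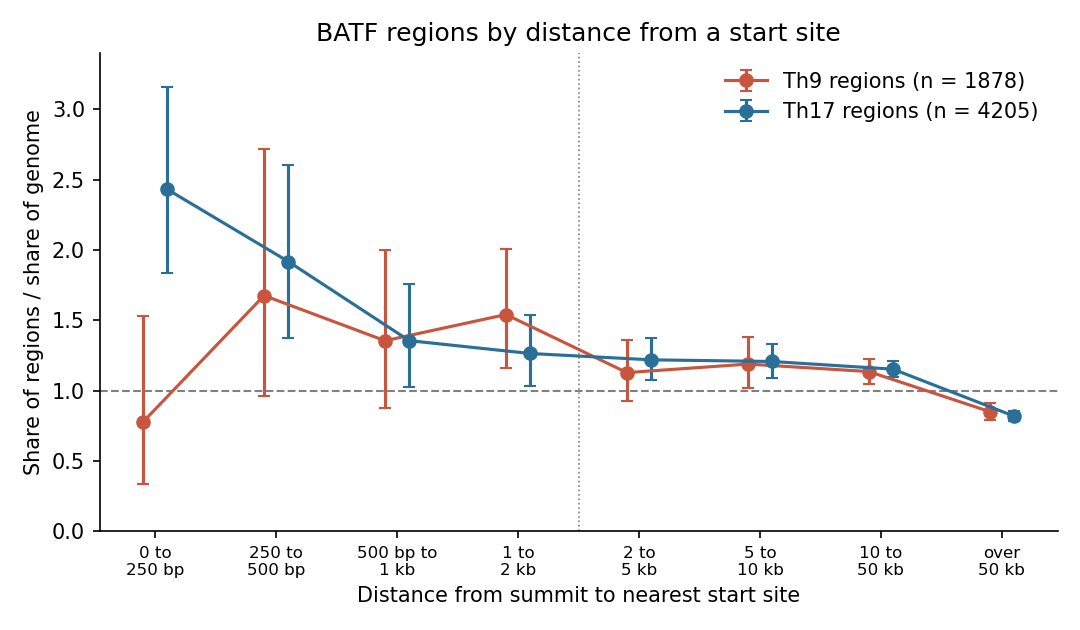
Share of Th9 and Th17 regions in each class of distance from the summit to the nearest curated start site, divided by the share of the genome in that class; the y axis is a ratio, bars are 95% Poisson intervals of the counts, the dashed line marks equal shares and the dotted line the 2 kb limit. Within 250 bp the ratio was 2.43 for Th17 regions and 0.777 for Th9 regions, and from 250 bp outwards the intervals of the cell types overlapped.

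The order of the cell types in the share of members next to a start site depended on the annotation. Within 250 bp of a RefSeq start site lay 55 of the 249 members of Th17 library 3 (22.1%, interval 17.1% to 27.8%) and 2 of the 9 of Th17 library 4 (22.2%, interval 2.81% to 60%). In Th9 cells it was 7 of the 94 members of library 1 (7.45%, interval 3.05% to 14.7%) and 1 of the 14 of library 2 (7.14%, interval 0.181% to 33.9%). Both Th17 libraries were higher than both Th9 libraries, but the smaller library of each cell type rests on 1 or 2 regions. The region of Th9 library 2 is that of *Bpifc*, and Th17 library 4 has the same region and that of *Ctla4*. The difference between the cell types, seen in these data, was not tested. With the start sites of GENCODE vM21, chosen after seeing the data, the order was not kept, with 17.4%, 21.4%, 19.2% and 11.1% in libraries 1 to 4. The 8 Th9 regions within 250 bp of a RefSeq start site included those of *Bpifc* and of *Creb5*, a bZIP factor of the CREB family (52 bp upstream, −log10 q 4.60). Those of Th17 cells included *Il2ra*, *Ctla4*, *H4c14* and *Arf4*, a small GTPase of vesicle traffic.

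Sequence composition moved with this position. A window was called CpG-rich at a GC content of at least 50% and an observed-to-expected CpG ratio of at least 0.6. By this definition 62 of the 343 members were CpG-rich (18.1%, interval 14.1% to 22.6%), against 0.561% of distal regions and 11.1% of all 498750 windows of the same length laid end to end over the zones within 2 kb of start sites. The median GC content was 46.8% in members, 46.8% in those windows and 41.3% in distal regions. The median GC content of members fell from 60.7% within 250 bp to 42.8% between 1 and 2 kb. CpG-rich windows made up 12 of 94 members in Th9 library 1 (12.8%), 1 of 14 in Th9 library 2 (7.14%), 50 of 249 in Th17 library 3 (20.1%) and 0 of 9 in Th17 library 4, where counting error allows up to 33.6%.

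**Figure D2:**
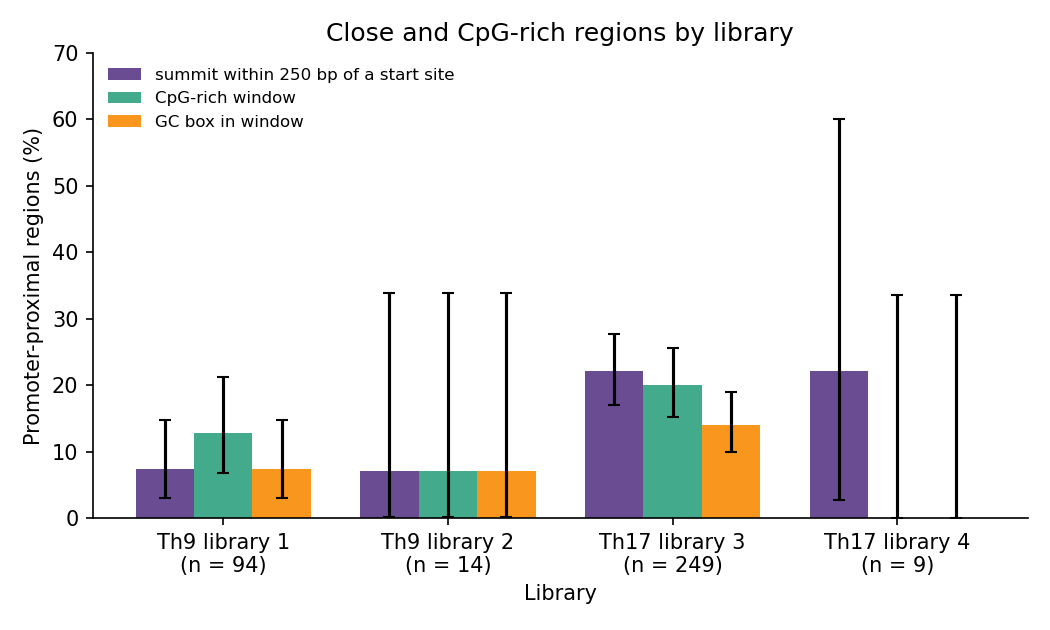
Percentage of the promoter-proximal regions of each library with the summit within 250 bp of a start site, with a CpG-rich window of 100 bp to either side of the summit, and with a GC box in that window; bars are shares and error bars exact 95% binomial intervals, with the number of regions below each library. The summit lay within 250 bp in 22.1% of the regions of Th17 library 3 and in 7.45% of those of Th9 library 1, and the intervals of the other libraries, with 14 and 9 regions, span most of the range.

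Relative to gene structure, 153 of the 343 summits lay in introns (44.6%), 133 between genes (38.8%), 21 in coding exons, 17 in 5′ UTRs, 12 in exons of non-coding transcripts and 7 in 3′ UTRs. The nearest start site belonged to a protein-coding transcript in 282 and to a non-coding one in 61. Most regions (305) had the start sites of a single gene within 2 kb, and 36 had start sites on both strands. Repeat-masked sequence made up more than 50% of the window in 26 members (7.58%) and in 17.3% of distal regions.

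Together the 343 regions lay within 2 kb of a start site of 381 genes, which is 1.46% of the 26180 genes with a curated start site. Of these, 117 genes had a region in Th9 cells (0.447% of genes), 283 in Th17 cells (1.08%) and 19 in both. For 18 of the 19 genes the cell types shared the region itself.

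Regions called in 3 or 4 libraries numbered 5 (1.46% of members, against 1.41% of all regions), and with 2 libraries of each cell type such regions are in both by construction. Fold enrichment is a ratio, the fragments piled up at a summit over those of the local background, and −log10 q is the peak caller's significance after correction. Neither is on a common scale between libraries, so ranks and classes of −log10 q that pool the 4 libraries describe the calls and do not compare libraries. *Gm4827*, a non-coding gene, had the region called in all 4 libraries, with fold enrichments of 8.05, 4.80, 9.10 and 6.48 in libraries 1 to 4. Against IgG alone it was called in all 4 as well, and against input alone it was not called in Th17 library 4. The summit of this region lay 1980 bp downstream of the start site, near the limit of the rule. The *Bpifc* region, 156 bp upstream of the start site of a gene of the BPI lipid-binding fold family, was called in Th9 library 2 and in both Th17 libraries, at fold enrichments of 7.93, 10.4 and 6.29. Both of these regions lack an AP-1 site, as the printed windows show.

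Another 3 regions were called in 3 libraries. *Ankrd55*, which encodes an ankyrin repeat protein, had fold enrichments of 9.83 and 8.54 in Th9 libraries 1 and 2 and 9.19 in Th17 library 4. The region in *2500004C02Rik*, whose start site shares its surroundings with that of the chromatin regulator *Asxl1*, had 8.49, 9.73 and 9.19 in the same libraries. Neither was called in Th17 library 3, the library with the most peaks. *Afg3l1*, related to mitochondrial AAA proteases, had 8.54 in Th9 library 2 and 9.73 and 10.3 in Th17 libraries 3 and 4.

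Regions called in both libraries of 1 cell type and in neither library of the other numbered 1 for each, together 0.583% of members against 1.16% of all regions. *Mef2c*, a MADS-box transcription factor, had a region 875 bp upstream of a start site with fold enrichments of 6.54 and 9.07 in Th9 libraries 1 and 2. *Slc25a45*, a mitochondrial carrier, had a region 313 bp downstream of a start site, in a 5′ UTR and with an AP-1 site, at 9.60 and 9.73 in Th17 libraries 3 and 4. The remaining 10 regions called in 2 libraries were shared by a Th9 and a Th17 library. They included *Osgin2* (9.56 in Th9 library 1 and 10.7 in Th17 library 3), *Cass4*, a scaffold of the Cas family (9.08 in Th9 library 2 and 6.66 in Th17 library 3), *Gimap5*, a GTPase needed for lymphocyte survival (6.04 in Th9 library 1 and 8.47 in Th17 library 3), and *Lpxn*, a focal adhesion adaptor of leukocytes (6.11 in Th9 library 1 and 9.19 in Th17 library 4).

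**Figure D3:**
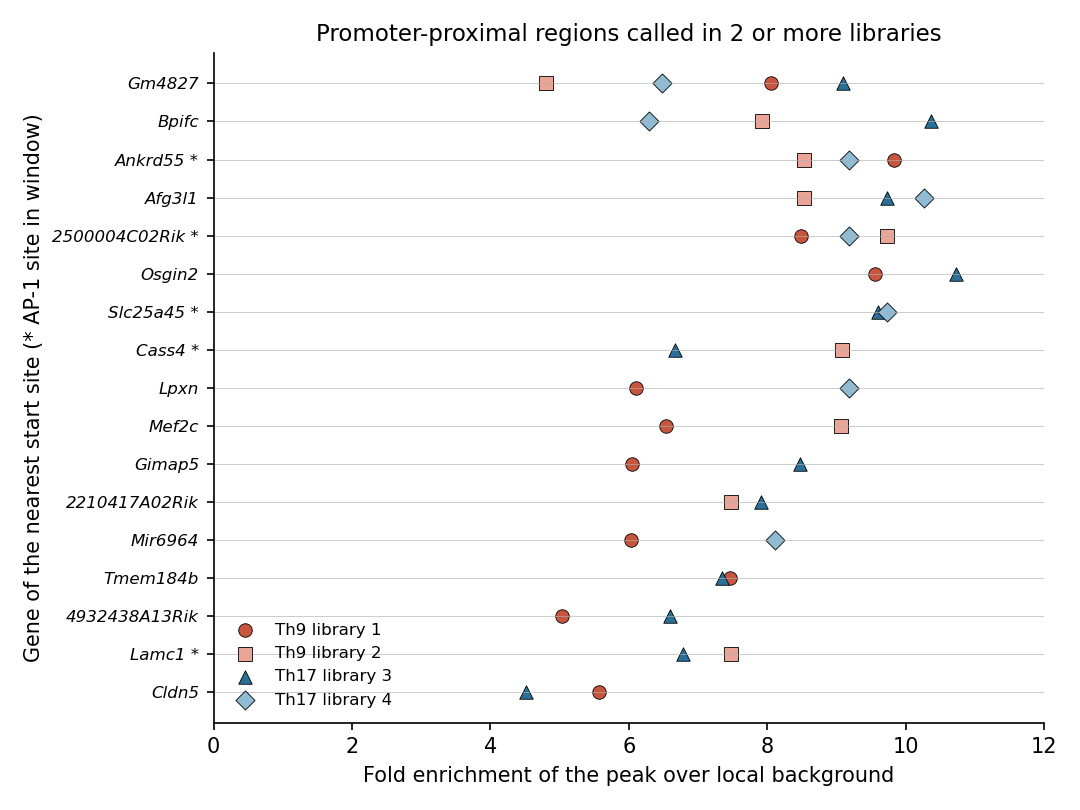
Fold enrichment over local background, on the x axis, of the 17 promoter-proximal regions called in 2 or more libraries, named by the gene of the nearest start site, with 1 symbol for each library that called the region and a star where the window holds an AP-1 site. The values lie between 4.51 and 10.7, and the region of *Gm4827* is the only one with a symbol for all 4 libraries.

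Of the 10 regions with the highest −log10 q over all libraries, 8 were called in a single library, as were 326 of all 343 members (95%) and 95.3% of distal regions. The top region lay 1779 bp upstream of *Bnip2*, which encodes a BCL2-interacting protein, with a −log10 q of 33.2 and a fold enrichment of 18.1 in Th17 library 3. *Aebp2*, a cofactor of the Polycomb complex PRC2, had a region 1937 bp upstream with 19.7 and a fold enrichment of 12.6 in Th9 library 1. *Il2ra*, the alpha chain of the interleukin-2 receptor, had one 148 bp upstream with 18.3 and a fold enrichment of 12.4 in Th17 library 3. It was also called in that library against IgG alone (12.4) and against input alone (11.8).

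The next values were 16.9 in Th17 library 3 for both *Slc17a8*, a vesicular glutamate transporter, and the olfactory receptor gene *Olfr530*. They were 15.6 in Th9 library 1 for both the non-coding *Gm4793* and the pseudogene *Morf4l1-ps1*, and 15.6 in Th17 library 3 for *Rbpj*, the DNA-binding effector of Notch signalling. *Bpifc* (14.6) and *Osgin2* (14.3) complete the first 10. Of these 10 regions, those of *Slc17a8* and *Rbpj* held an AP-1 site.

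Compared with distal regions of the same library, promoter-proximal regions had a higher median −log10 q in 4 of 4 libraries. This comparison was not planned, and −log10 q also chose the summit of each merged region. The medians were 4.25 against 3.82 in Th9 library 1, 7.28 against 4.62 in Th9 library 2, 5.02 against 4.12 in Th17 library 3 and 10.3 against 6.81 in Th17 library 4 (exact sign-flip permutation test over 4 libraries, 2 of 16 sign patterns as extreme, the fewest this design allows). Median fold enrichment was equal in the larger libraries, at 5.54 in Th9 library 1 and 5.65 in Th17 library 3. It was higher in members of the smaller ones, at 7.70 against 6.4 in Th9 library 2 (n = 14 members) and 9.19 against 7.12 in Th17 library 4 (n = 9 members). The mean difference was 0.841 ± 1.02 (SD, n = 4 libraries; exact sign-flip permutation test, p = 0.5).

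The lists of T helper genes are described by the number of their genes with a promoter-proximal region. Of 26 cytokine genes, 2 had such a region (7.69%, against 1.46% of all genes), *Il9* in Th9 library 2 and *Il21*, a cytokine of T follicular helper and Th17 cells, in Th17 library 3. The *Il9* region lay 394 bp upstream at a fold enrichment of 7.47, and was called in that library against each control alone and in Th9 library 1 against input alone (fold enrichment 5.54). The *Il21* region lay 429 bp upstream of the start site at a −log10 q of 6.0 (fold enrichment 6.78), was called against IgG alone as well, and was not called against input alone. Of 33 cytokine and chemokine receptor genes on the list, 1 had a region, *Il2ra* (3.03%). Receptor genes outside this list were also members, namely *Ccr9* (−log10 q 9.30), *Il11ra1* (6.0) and *Cxcr2* (2.62), each in Th17 library 3. Of 27 costimulation and checkpoint receptor genes, *Cd28*, *Ctla4* and *Il2ra* (which is on both lists) had one (11.1%), each in 1 Th17 library. The *Cd28* region, 1840 bp upstream, had a fold enrichment of 9.03 in Th17 library 3, was not called against input alone, and 67.7% of its window is masked as repeats. *Ctla4* had its region 126 bp upstream in Th17 library 4, called against each control alone. Of 35 T cell receptor signalling genes, 1 had a region (2.86%). This was *Ptprc*, which encodes the phosphatase CD45, with a region 1526 bp upstream at a fold enrichment of 7.90 in Th17 library 3, called against each control. These list shares lie above the share of all genes, rest on 1 to 3 genes each and were not tested. Only lists with a region are gathered here, and T helper lists without one follow below. In a list of 33 or 35 genes a single gene already gives a share above 1.46%, so a count of 1 is also near the background.

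Other T helper lists had no gene with a promoter-proximal region. These were the 33 AP-1 and related bZIP factors, the 15 IRF and STAT factors, the 32 T helper lineage factors, the 16 inhibitors of cytokine signals and the 20 survival and death genes. The lists do not hold every gene of a family. The bZIP genes *Creb5* and *Mafa* (−log10 q 6.75 in Th9 library 2) and the BCL2 family gene *Bcl2l10* (5.02 in Th17 library 3) are not on them, were members and were named after their values were seen. At the background of 1.46% of genes, lists of this size would hold few members, so a count of 0 is near the background. Among markers of the cells, *Il9* had a region in Th9 cells and not in Th17 cells, and no promoter-proximal region was called at *Il17a*, *Il17f*, *Cd3e* or *Cd4*, nor at the 20 markers of other cell types. A peak is not a measure of expression, so these counts do not test the identity of the cells.

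The lists of housekeeping and small RNA genes had shares of 1.09% to 2.42%, against 1.46% of all genes, and were not tested. Of 44 core transcription machinery genes, *Polr2f*, a subunit shared by RNA polymerases, had a region (2.27%, fold enrichment 6.21 in Th17 library 3). The other counts were 2 of 100 ribosomal protein genes (2%, *Rpsa* and *Rpl37rt*) and 2 of 97 replication-dependent histone genes (2.06%, *H1f5* and *H4c14*). They were 3 of 124 small nucleolar RNA genes (2.42%, *Snora23*, *Snora62* and *Snord90*) and 13 of 1190 microRNA genes (1.09%). *Rpsa* and *Snora62* share a single region, and the microRNA count includes both *Mir155hg* and *Mir155*. The histone gene *H4f16* is not on the list and was a member (−log10 q 4.62 in Th9 library 2). Both *Mir155hg* and the microRNA within it, *Mir155*, which is induced in activated lymphocytes, shared a single region in an intron, 279 bp downstream of the *Mir155hg* start site. It had a fold enrichment of 6.70 in Th9 library 1 and was not called against input alone.

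The search covered 12 motifs on both strands within 100 bp of the summit. AP-1 was far more frequent at promoter-proximal regions than over all windows within 2 kb of start sites. It was present in 77 of 343 members (22.4%, interval 18.1% to 27.2%), in 3.10% of all windows of the same length within 2 kb of start sites and in 16.6% of distal regions. The 300 bp RefSeq promoters of all genes held it in 5.20%. The excess over distal regions was 5.81 percentage points (two-sided Fisher's exact test, p = 0.00746, Benjamini-Hochberg adjusted p = 0.0179 over 12 motifs). By library, the member and distal shares were 18.1% and 14.9% in Th9 library 1, 28.6% and 30.8% in Th9 library 2, 24.1% and 18.5% in Th17 library 3, and 33.3% and 41.8% in Th17 library 4. The members were higher in 2 of 4 libraries, and the intervals of members and distal regions overlapped in all 4. Without Th17 library 3 the excess was 2.81 points (Fisher's exact test, adjusted p = 0.674), and without Th9 library 1 it was 5.0 points (adjusted p = 0.102).

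The excess over distal regions lay among the weaker regions. At a −log10 q from 2 to 3, 10.4% of members and 6.10% of distal regions held an AP-1 site, and from 3 to 5 it was 19.5% (23 of 118, interval 12.8% to 27.8%) and 9.57% (209 of 2185, interval 8.36% to 10.9%). From 5 to 8 the shares were 23.0% and 21.3%, and at 8 or more they were 41.4% (24 of 58) and 46.2% (367 of 795). In regions of peaks with a −log10 q of at least 5, the difference turned to −1.29 points (Fisher's exact test, adjusted p = 0.861). Where present, the nearest AP-1 site was a median of 21 bp from the summit in members and 30 bp in distal regions, and 47 of the 77 members had it within 25 bp. Among the 17 members called in 2 or more libraries, 5 held the site (29.4%, interval 10.3% to 56.0%), against 49.4% of the 261 distal regions called as often (interval 43.2% to 55.7%), a difference that was not tested.

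**Figure D4:**
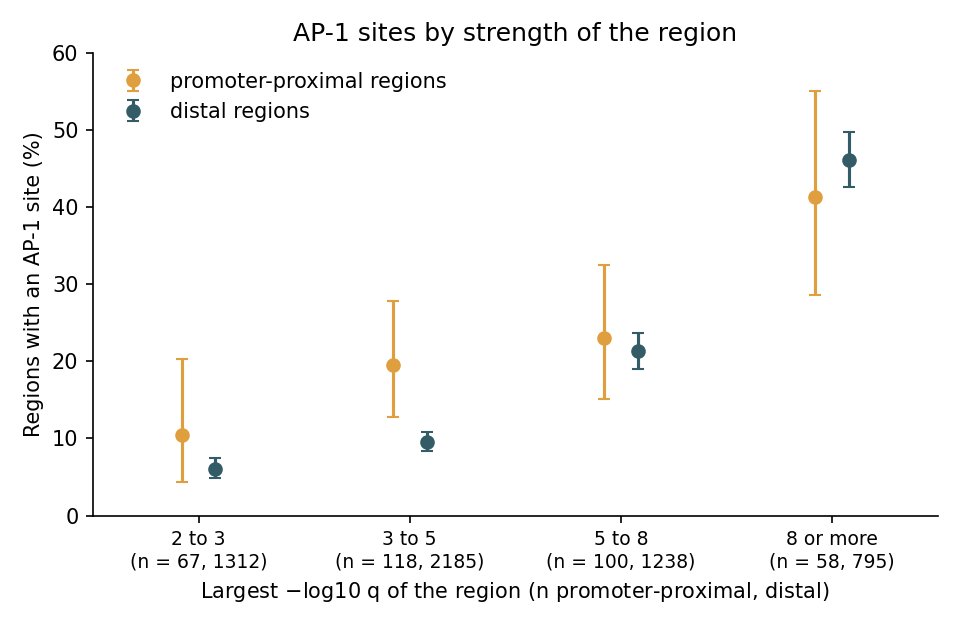
Percentage of promoter-proximal and distal regions with an AP-1 site within 100 bp of the summit, on the y axis, by the largest −log10 q of the region over the libraries that called it, with exact 95% binomial intervals and the numbers of regions under each class. The share rises with strength in both, from 10.4% to 41.4% in promoter-proximal regions, and the intervals of the compared regions separate only between 3 and 5.

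AP-1 was present in 7 of 62 CpG-rich members (11.3%, interval 4.66% to 21.9%) and in 70 of 281 other members (24.9%, interval 20% to 30.4%). The intervals overlapped, and the difference was not tested. Of all windows within 2 kb of start sites, 1.35% of the CpG-rich and 3.32% of the other ones held it.

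The GC box (GGGCGG), a promoter element bound by SP factors, had the largest difference from distal regions. It was present in 43 members (12.5%, interval 9.22% to 16.5%) and in 1.74% of distal regions (Fisher's exact test, adjusted p = 8.89e-20). All windows within 2 kb of start sites held it in 9.55%, inside the interval of the members. The 300 bp RefSeq promoters of all genes held it in 35.7%. Members lie within 2 kb of start sites by the rule. The test against distal regions therefore cannot separate BATF regions from start-site sequence in general. The excess over distal regions was 10.8 points, and 5.82 points without Th17 library 3. With equal numbers of top peaks it was 1.37 points and did not pass (Fisher's exact test, adjusted p = 0.788). The member share was higher than the distal share in 3 of 4 libraries, at 7.45% against 1.67% in Th9 library 1, 7.14% against 2.64% in Th9 library 2 and 14.1% against 1.84% in Th17 library 3, and 0 of 9 members of Th17 library 4 held it. Within 250 bp of the start site 24 of 63 members held it, and between 1 and 2 kb 7 of 148.

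The ETS motif and the E-box were also more frequent in members than in distal regions. The same limit holds for these tests, since members lie near start sites by the rule. The share of all windows lay inside the member interval for the ETS motif (1.41% to 5.30%) and the TATA motif (8.21% to 15.2%). For the E-box it lay below that interval (3.14% to 8.17%). The ETS motif (CCGGAAG) was in 2.92% of members, 0.615% of distal regions and 1.70% of all windows (Fisher's exact test, adjusted p = 0.00101, members against distal), from 2 members of Th9 library 1 and 8 of Th17 library 3, with 0 in the small libraries. The E-box (CACGTG) was in 5.25%, 1.95% and 2.79% (Fisher's exact test, adjusted p = 0.00135), higher in members in Th9 library 1 and Th17 library 3 and in 0 members of the small libraries. The TATA motif (TATAAA) was less frequent in members than in distal regions, at 11.4%, 17.7% and 12.5% of all windows (Fisher's exact test, adjusted p = 0.00594). The direction was the same in 4 of 4 libraries, with 0 of 14 members in Th9 library 2 and 0 of 9 in Th17 library 4. The intervals of these small libraries reach 23.2% and 33.6% and include their distal shares of 12.8% and 10.1%. The cyclic AMP response element (TGACGTCA), which CREB and ATF factors bind, was in 3 members, all within 250 bp of a start site and called in Th17 library 3 (*Tmem39a*, *1810044D09Rik* and *Gm19619*). Its shares were 0.875%, 0.181% of distal regions and 0.239% of all windows (Fisher's exact test, adjusted p = 0.0729). The 300 bp RefSeq promoters of all genes held this element in 1.79%, the ETS motif in 8.86%, the E-box in 7.15% and the TATA motif in 13.6%.

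No difference between members and distal regions passed the test for the remaining motifs. The composite was in 1.75% of members, 1.34% of distal regions and 0.0768% of all windows (Fisher's exact test, adjusted p = 0.626). The IRF motif (GAAA repeated after a pair of free bases) was in 3.21%, 3.83% and 2.73%, the STAT motif (TTCNNNGAA) in 7.87%, 8.93% and 6.10%, the RUNX motif (TGTGGTT) in 7.29%, 7.2% and 4.36%, the CCAAT box in 23.6%, 26.7% and 24.1%, and the NRF1 motif (GCGCATGC) in 0.583%, 0.199% and 0.497%. A match is a description of the sequence and does not show that the factor was bound.

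**Figure D5:**
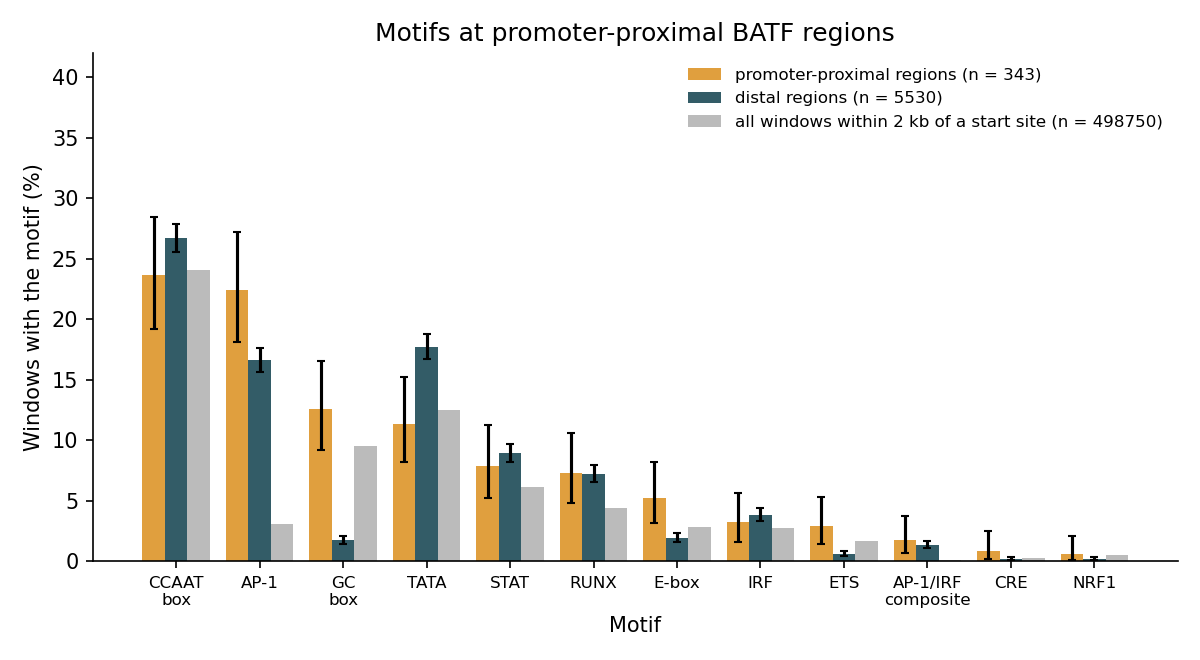
Percentage of windows (100 bp to either side of the summit) holding each of 12 motifs, on the y axis, at promoter-proximal regions, at distal regions and over all windows within 2 kb of a curated start site, with exact 95% binomial intervals on the regions. AP-1 stands out from the windows (22.4% against 3.10%), while the GC box stands out from distal regions (12.5% against 1.74%) and is near the windows (9.55%).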

How the data were processed

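Per the labels, reads were trimmed with Trim Galore 0.4.3, aligned to mm10 (GRCm38) with Bowtie2 and called with MACS2 2.1.0. According to Methods, calling used a q threshold of 0.01 and kept duplicates. The authors deposited for each peak a fold enrichment, a ratio of fragments at the summit to local background. They also deposited the −log10 p and −log10 q of each peak. Of the 3 lists per library, the one with both controls was used, and the control of a list is known from its name only. Start sites came from curated (NM_ and NR_) transcripts of RefSeq annotation release 108.20200622. Motifs were exact words within 100 bp of the summit, without a score. Nearest genes follow the start site closest to the summit, so a region may lie in another gene.

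Tests were Fisher's exact tests over regions, with Benjamini-Hochberg adjustment over 12 motifs, and exact permutation tests over libraries. Lists are described by counts beside the share of all genes. The code was tested on simulated data. Named genes are those of regions called in 3 or 4 libraries or in both libraries of a cell type, the 10 highest −log10 q, members of 15 gene lists, and the regions at the 2 kb limit; 1 marker of the cells is not reported here. Others were named after their values were seen: *Creb5*, *Mafa*, *Bcl2l10*, *H4f16*, *Ccr9*, *Il11ra1*, *Cxcr2*, *Arf4*, *Asxl1*, *Lamc1*, *Cass4*, *Gimap5*, *Lpxn*, *Deptor*, *Tab2*, and the genes with a composite or cyclic AMP response element. The classes of distance and of q, and CpG-rich windows, were also chosen then. The comparison of −log10 q between members and distal regions was not planned and was not recalculated under other settings. Members and lists were chosen with earlier results of these data known. Alternatives were each single control, a minimum −log10 q of 5, equal numbers of top peaks, limits of 1 and 5 kb, protein-coding transcripts, leaving out repeats or a library, other motif settings, and GENCODE vM21. Calculations ran in Python 3.11.15 (scipy 1.17.1, numpy 2.4.6, pysam 0.24.0, pandas 2.3.3) and plots in matplotlib 3.10.9.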

Additional observations from a re-analysis of the deposited data

Results flagged for a closer look

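The lists called against a single control held promoter-proximal regions that share no base with any region called against both controls. Against IgG alone there were 8 of 278 (2.88%), and 3 of the 8 held an AP-1 site. Against input alone there were 24 of 334 (7.19%), with 5 called in Th9 and 20 in Th17 cells and a median −log10 q of 3.65, and 2 of the 24 held an AP-1 site (8.33%, interval 1.03% to 27%). These are signals above the control used, and none of these regions is among the 343.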

How the results depend on the processing

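No paired analysis was possible because no number is common to a Th9 library (1, 2) and a Th17 library (3, 4). A common number links a BATF library to its controls and nothing else. Of 105 recalculated values, 73 kept their direction and their side of the threshold or, where no test was run, moved by less than the spread between libraries (counts of regions, by less than 1.5 times). Among the 73, the promoter share changed sign without Th17 library 4, to 0.610. Causes were not tested unless the construction gives them. Differences are promoter-proximal minus distal or Th17 minus Th9, in percentage points for shares.

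The number of members was 158 at a minimum −log10 q of 5, 31 with equal numbers of top peaks, 195 within 1 kb and 710 within 5 kb, fewer or more by construction, and 611 with GENCODE vM21, chosen after seeing the data. Leaving out 1 library gave 106 to 342. The promoter share changed sign to 0.448 with IgG only and to 0.758 within 1 kb. It was −3.96 with GENCODE, and leaving out 1 library gave −0.925 to 0.610.

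The AP-1 excess no longer passed the test with IgG only (4.0), within 1 kb (3.66), with mostly repeat-masked regions left out (4.02) or with GENCODE (2.61). It changed sign at a minimum −log10 q of 5 (−1.29) and with equal numbers of top peaks (−8.48). Over all 12 alternatives of this kind its adjusted p ran from 0.00129 to 0.861 (Fisher's exact test), and leaving out 1 library gave 2.81 to 6.36. The GC box excess was 1.37 with equal numbers of top peaks, where it did not pass, and 5.82 to 12.1 without 1 library, where it passed each time.

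The share called in both cell types passed with GENCODE only (2.04), and without 1 library it was −0.197 to 3.61. The share called in 2 or more libraries changed sign to −0.977 at a minimum −log10 q of 5 and to −0.122 within 1 kb, and without 1 library it was −0.425 to 2.35. The difference in fold enrichment was −0.202 with GENCODE, 0.142 at a minimum −log10 q of 5 and 0.432 to 1.12 without 1 library. The difference within 250 bp was 14.7 to 15.0 without 1 library, 15.4 to 22.3 in the other RefSeq settings run and −4.30 with GENCODE. Small libraries, with 14 and 9 members, limit every comparison between cell types.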

Other observations

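Among the 381 genes, 2 had 2 separate regions within 2 kb of their start sites. *Deptor*, an inhibitor of mTOR signalling, had regions 1426 and 1798 bp downstream, both called in Th17 library 3, at fold enrichments of 7.34 and 5.65, and both with an AP-1 site. *Tab2*, an adaptor of TAK1 signalling, had a region 979 bp upstream in Th9 library 1 (fold enrichment 5.54) and another 1500 bp upstream in Th17 library 3 (fold enrichment 5.08), neither with an AP-1 site. It was the 1 gene of the 19 bound in both cell types whose regions did not overlap.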
